A study of Mus musculus with 23 samples.

Results

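A panel of 33 mouse genes of the contractile and myofibroblast programme was followed in primary mouse embryonic fibroblasts (MEFs) that carried wild-type or mutant glucocorticoid receptor (GR) and were treated with the synthetic glucocorticoid dexamethasone (Dex) or vehicle. The members were taken by name, and the list was chosen with earlier results of these data known. They comprised 11 genes of the actin thin filament, 5 of the myosin motor, 6 cross-linker and intermediate filament genes, 7 of the focal adhesion, and 4 transcription factor and inducible genes. The count table held 55487 genes, the filter on low counts left 15748 genes for testing, and 33 of the 33 members passed it.

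Fibroblasts in culture can take on a myofibroblast state, in which smooth muscle isoforms of actin, calponin, transgelin, tropomyosin and myosin light chain are assembled into stress fibres anchored at focal adhesions. Many of these genes share control by serum response factor (SRF), which binds the CArG box, and by its cofactors of the myocardin family. Some of these cofactors respond to the pool of free actin. The programme also responds to TGF-beta and to the stiffness of the substrate, and it is a familiar source of differences between fibroblast cultures.

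The cells came from mid-gestation embryos of FVB/NJ mice and were homozygous for 1 of 4 GR alleles. GRwt/wt cells had the unchanged receptor, GRD/D cells carried A465T in the DNA-binding domain, at the face where receptors pair, GRL/L cells carried I634A in the ligand-binding domain, and GRD+L/D+L cells carried both changes. Each genotype was treated for 5 h with 10 nM Dex or with vehicle, in 3 libraries a group, except that GRD/D vehicle had 2, which made 23 libraries and 8 groups. Head and organs had been removed before the cells were dispersed, and the study used 3 cultures a genotype, each of a different mouse and each treated with vehicle or Dex, so a difference between genotypes is also a difference between sets of cultures, and p-values measure the spread between these cultures.

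Library totals ran from 16452539 to 23117080 counts. One library, GRwt/wt vehicle replicate 1, stood apart over all genes. Relative to each gene's median, its values followed the GC content of the transcripts (Spearman rho 0.688 across genes, which are not independent replicates), and its closest other library had a rho of 0.916, against at least 0.973 for every other library. Nr3c1, the gene of GR, stood at 4.08 CPM in it and between 44.5 and 265 CPM in the other libraries. GRwt/wt Dex replicate 1 came next, with a GC rho of 0.331, its closest library at 0.973 and Nr3c1 at 44.5 CPM. The remaining libraries had a GC rho of -0.201 to 0.109. GRwt/wt vehicle replicate 3 held macrophage markers at a summed 4683 CPM (counts scaled by TMM to a common library size), 3379 of it from Lyz2, against 8.05 to 1604 CPM in the other libraries. Fibroblast markers summed to 33856 to 61658 CPM and 0 of the 12 were under 1 CPM throughout. Of the 9 skeletal muscle markers 7 stayed under 1 CPM in all libraries, and of the 6 cardiac markers 5 did, whereas Acta1, the skeletal muscle actin, reached 57.0 CPM. In bulk RNA, fewer cells of a kind and less RNA per cell cannot be told apart.

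Promoter windows from RefSeq (GRCm38.p6), which ran from 250 bases before to 50 bases after the start, were matched by symbol for 27 members. Actg2, Tagln, Myh11, Tgfb1i1, Myocd and Thbs1 had no entry. A CArG box, searched for by its consensus, which reads alike on both strands, was present in the windows of 7 members (25.9% of the 27), namely Srf, Cnn2, Myl9, Myl6, Lima1, Vcl and Fermt2. Among all genes with a window it was present in 488 of 27025 (1.81%), and counted by window in 535 of 32851 (1.63%). A match is a description of letters in a window, not evidence of a bound site. The 250 bases before the start are shown for 6 of the 7, with the box in capitals, because the box is a sequence feature that these members share. They lie at chr17:46556163-46556412 on the minus strand for Srf, chr10:79988350-79988599 on the plus strand for Cnn2, chr2:156775214-156775463 on the plus strand for Myl9, chr10:128493010-128493259 on the minus strand for Myl6, chr15:99820150-99820399 on the minus strand for Lima1 and chr14:20929148-20929397 on the plus strand for Vcl.
Srf: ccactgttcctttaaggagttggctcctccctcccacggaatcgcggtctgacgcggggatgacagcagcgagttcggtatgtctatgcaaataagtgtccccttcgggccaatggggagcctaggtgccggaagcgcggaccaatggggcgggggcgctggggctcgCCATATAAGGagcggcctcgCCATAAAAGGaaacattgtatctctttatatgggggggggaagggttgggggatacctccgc
Cnn2: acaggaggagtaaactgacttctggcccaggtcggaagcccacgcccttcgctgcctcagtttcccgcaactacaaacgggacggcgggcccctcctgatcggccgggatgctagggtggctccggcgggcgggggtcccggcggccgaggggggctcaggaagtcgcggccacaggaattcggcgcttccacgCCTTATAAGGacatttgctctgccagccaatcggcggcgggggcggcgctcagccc
Myl9: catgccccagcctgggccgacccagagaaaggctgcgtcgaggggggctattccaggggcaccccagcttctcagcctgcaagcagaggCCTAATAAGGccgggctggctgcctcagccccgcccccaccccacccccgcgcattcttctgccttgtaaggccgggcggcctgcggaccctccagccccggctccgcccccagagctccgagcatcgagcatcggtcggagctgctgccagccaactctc
Myl6: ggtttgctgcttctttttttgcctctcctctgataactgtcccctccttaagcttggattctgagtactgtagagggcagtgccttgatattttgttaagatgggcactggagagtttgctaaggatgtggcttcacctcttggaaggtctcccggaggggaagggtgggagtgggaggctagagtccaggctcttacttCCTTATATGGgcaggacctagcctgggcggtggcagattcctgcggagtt
Lima1: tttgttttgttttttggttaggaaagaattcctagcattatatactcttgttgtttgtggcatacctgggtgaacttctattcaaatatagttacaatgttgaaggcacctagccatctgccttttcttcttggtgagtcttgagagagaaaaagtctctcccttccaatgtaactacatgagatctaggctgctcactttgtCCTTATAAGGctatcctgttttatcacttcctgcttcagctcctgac
Vcl: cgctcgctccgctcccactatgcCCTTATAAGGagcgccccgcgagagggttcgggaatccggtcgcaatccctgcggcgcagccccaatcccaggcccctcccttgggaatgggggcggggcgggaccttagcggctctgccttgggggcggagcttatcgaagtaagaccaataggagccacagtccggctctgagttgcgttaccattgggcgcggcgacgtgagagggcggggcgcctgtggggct
The first base of the box lay 56 bases before the start in Cnn2, 50 in Myl6, 47 in Lima1, 161 in Myl9 and 227 in Vcl, and the 2 boxes of Srf began at 82 and 62 bases. Cnn2, Lima1 and Vcl carried the same 10 letters, CCTTATAAGG. Acta2 and Cnn1, classical targets of SRF, had no match in these windows. The search allowed no mismatch, and the Acta2 window holds ccctatatgg and ccttgtttgg, which come close to the consensus without meeting it. Lack of a match is therefore not evidence that a promoter has no CArG box.

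Contractile transcripts were abundant and differed widely between libraries. Per kb of exon, the mean level over all libraries was highest for Acta2 (smooth muscle alpha-actin) at 774 CPM per kb, followed by the matrix glycoprotein gene Thbs1 at 656, Tagln (transgelin) at 430 and the integrin subunit Itgb1 at 371. At the other end stood Myocd, the muscle-restricted SRF cofactor, at 0.0788 CPM per kb, and Synpo2, a Z-disc and stress fibre protein, at 1.19. The smooth muscle myosin heavy chain Myh11 lay at 2.58, far below its non-muscle relative Myh9 at 86.8.

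Several members of the thin filament had wide ranges in CPM. Between the lowest and the highest library Actg2 (smooth muscle gamma-actin) differed 35.6-fold, Cnn1 (calponin 1) 19.6-fold, Acta2 17.4-fold and Tagln 14.6-fold. Lima1, an actin-bundling protein, differed 1.68-fold, the fibronectin receptor subunit Itga5 1.89-fold, and Smtn (smoothelin) 2.04-fold. Des, the intermediate filament protein desmin, had the widest range of the members at 131-fold. It stood at 210 CPM in GRwt/wt vehicle replicate 1 and 140 CPM in GRwt/wt Dex replicate 1, and between 1.60 and 19.5 CPM elsewhere. These 2 libraries also held the highest summed cardiac markers, 8.72 and 10.9 CPM, against at most 2.81 elsewhere, and the part of this in the Des values was not tested. Over all 23 libraries the median SD of the members was 0.49 on the log2 scale, against 0.38 for all genes tested, and 26 of the 33 lay above the latter value.

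**Figure D1:**
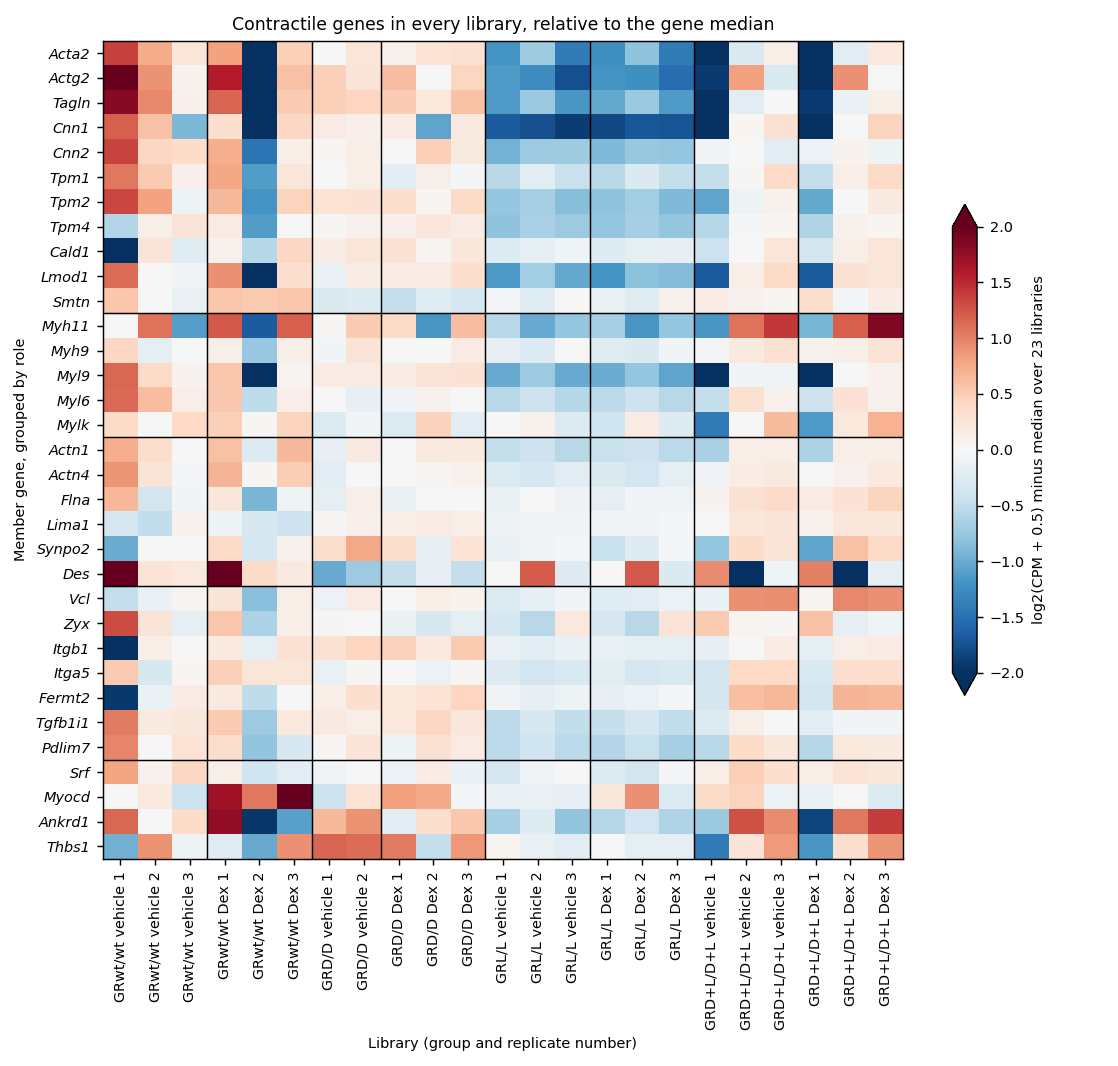
Log2(CPM + 0.5) of the 33 members (rows, grouped by role) in the 23 libraries (columns, grouped by genotype and treatment), each as the difference from the gene's median over all libraries. Columns of low values stand at GRwt/wt Dex 2, at both replicates 1 of GRD+L/D+L and across all 6 GRL/L libraries, and the rows of Acta2, Tagln, Cnn1 and Actg2 follow one another across them.

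Acta2 (ENSMUSG00000035783, chr19:34241090-34255590, minus strand) set the pattern. It stood at 4733, 3044 and 2155 CPM in the GRwt/wt vehicle libraries (replicates 1, 2 and 3) and at 3173, 303 and 2534 CPM with Dex. GRD/D held 1826 and 2152 CPM in vehicle and 1935, 2203 and 2266 CPM with Dex. In GRL/L the values were 795, 1115 and 691 CPM in vehicle and 780, 1039 and 691 CPM with Dex, below every GRD/D library. GRD+L/D+L split by replicate number, with 272, 1492 and 1964 CPM in vehicle and 283, 1580 and 2084 CPM with Dex.

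Some members kept close to Acta2 across this range and others did not. The ratio of Tagln to Acta2 stayed between 0.396 and 0.744, a 1.88-fold span, while Acta2 itself spanned 17.4-fold. The ratio spanned 2.14-fold for Myl9, the smooth muscle regulatory light chain, 3.20-fold for Actg2, 3.21-fold for Cnn1, 3.42-fold for Lmod1 (leiomodin) and 4.10-fold for Tpm2 (beta-tropomyosin). Other thin filament genes spanned more, namely Tpm1 6.04-fold, Cnn2 8.10-fold, Smtn 15.3-fold, Tpm4 17.7-fold and Cald1 (caldesmon) 61.8-fold. Among the adhesion genes it was 24.2-fold for Vcl (vinculin, 2090 of whose 8191 exon bases overlap Ap3m1 on the other strand) and 62.7-fold for Itgb1. Actin and light chain genes have near-identical copies, and only uniquely aligned reads were counted, so the levels of Acta2, Actg2 and Myl9 depend on how many of their reads could be placed.

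Single libraries carried much of this spread. GRwt/wt Dex replicate 2 held the lowest value of 18 members, and 33 of 33 members lay below the mean of its sister libraries, with a median of -1.03 (log2). In it 17 members were lower by at least 1, while 2.05% of all genes tested were. In GRD+L/D+L, replicate 1 lay below replicates 2 and 3 in 28 members in vehicle (median -0.77) and in 30 with Dex (median -0.73). A decrease of at least 1 was seen in 13 members in either treatment, 12 of them the same (Acta2, Actg2, Tagln, Cnn1, Tpm2, Lmod1, Myh11, Myl9, Mylk, Synpo2, Ankrd1 and Thbs1). Over all genes tested the share was 4.50% in vehicle and 4.47% with Dex.

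GRwt/wt vehicle replicate 1 held the highest value of 20 members. The 4 members of lowest GC content in their transcripts, Itgb1, Cald1, Tpm4 and Fermt2 (each under 47%), were lower there than in replicates 2 and 3 by 0.78 to 2.26 (log2). Of the 29 others 24 were higher and the median was 0.78. The spread within groups differed. In GRwt/wt vehicle the median SD was 0.55 (log2) for the members and 0.47 for all genes. The median SD of the members was 0.60 (log2) in GRwt/wt Dex and 0.46 and 0.44 in GRD+L/D+L vehicle and Dex, where all genes had 0.23, 0.21 and 0.21, but it was 0.12 and 0.11 in the GRL/L groups, where all genes had 0.13.

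**Figure D2:**
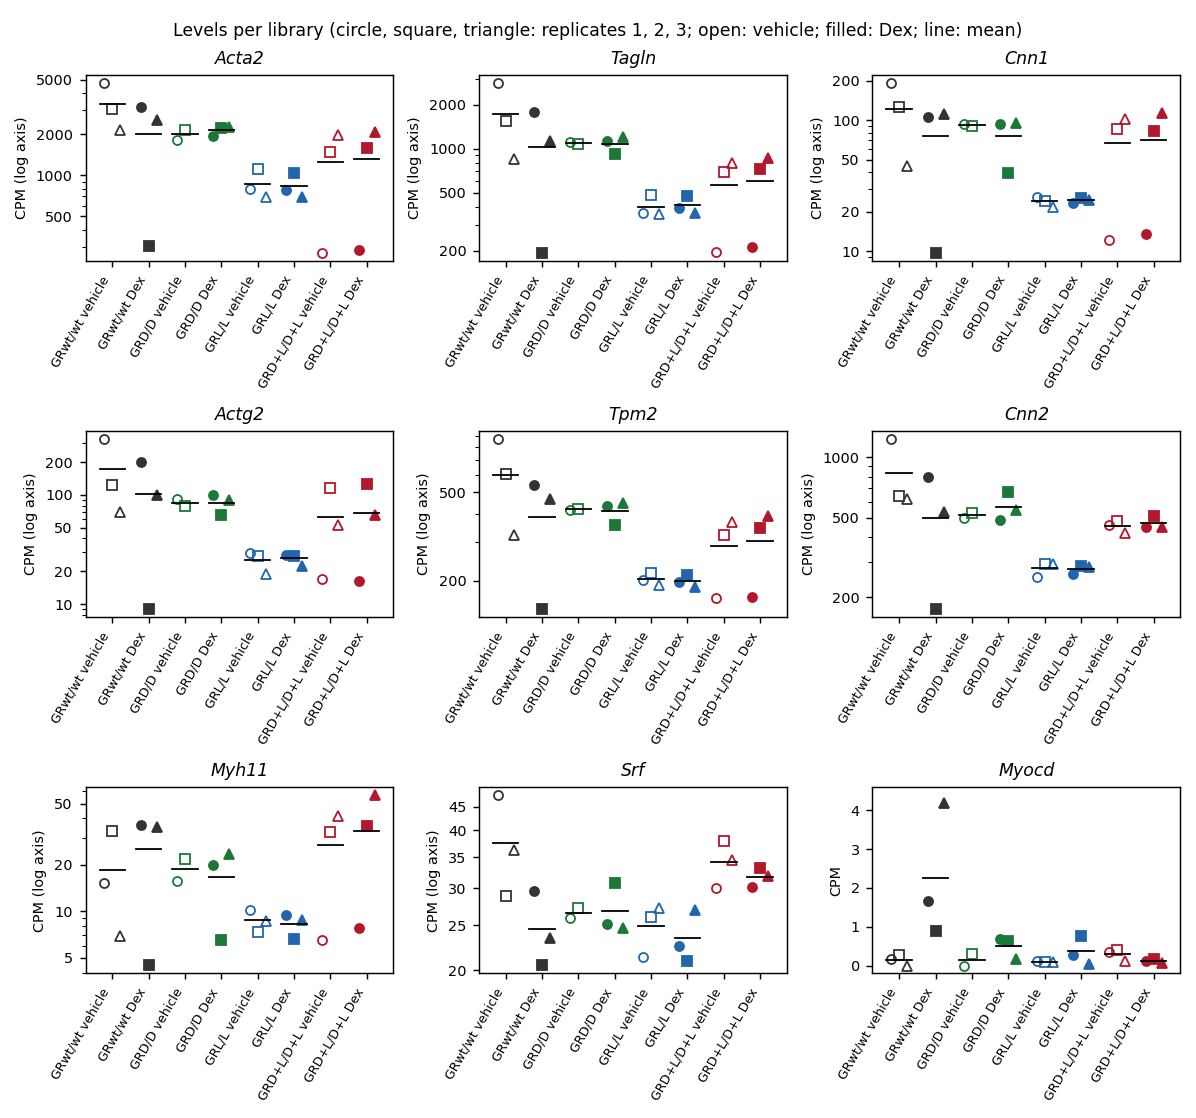
CPM of 9 members in each library (log axis except for Myocd) by group, with circles, squares and triangles for replicates 1, 2 and 3, open symbols for vehicle, filled symbols for Dex, and a line at the group mean. The square of GRwt/wt Dex and both circles of GRD+L/D+L lie far below their groups for Acta2, Tagln, Cnn1 and Actg2, and the GRL/L libraries form a tight low cluster.

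Within GRD+L/D+L and within GRL/L, the Dex and vehicle libraries of the same number resembled each other closely. The median absolute difference over the 33 members was 0.04 to 0.05 (log2) between same-numbered GRL/L libraries and 0.11 to 0.18 between differently numbered ones. In GRD+L/D+L it was 0.06 to 0.10 for equal numbers, and 0.75 to 0.80 for any pair of replicate 1 with replicate 2 or 3. Replicates 2 and 3 paired across numbers differed by 0.10 to 0.16, so in this genotype the separation was mainly that of replicate 1. GRwt/wt showed no such order, with 0.30 to 0.86 for equal and 0.28 to 1.66 for different numbers.

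**Figure D3:**
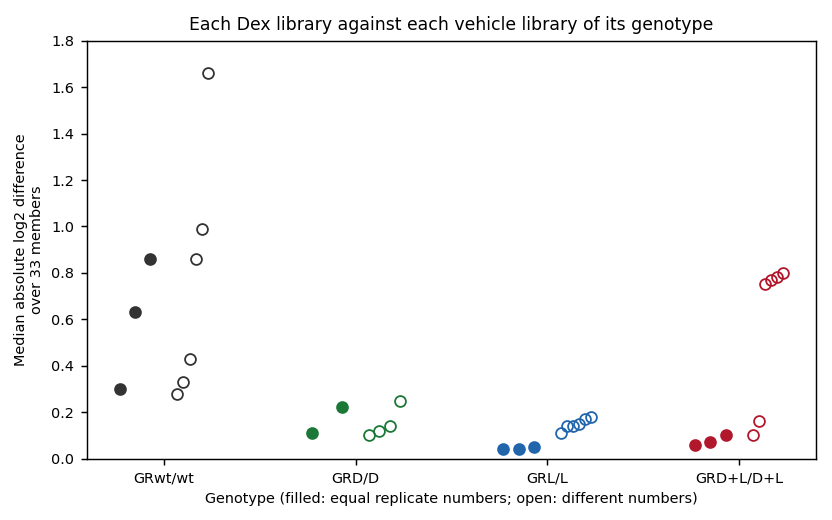
Median absolute log2 difference over the 33 members between each Dex library and each vehicle library of its genotype, filled for equal and open for different replicate numbers. In GRD+L/D+L and in GRL/L every filled point lies at or below the open ones, the highest filled value being 0.10, whereas in GRwt/wt filled and open points overlap.

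The first comparison asked whether 10 nM Dex changed the contractile genes within 5 h. A gene was called when its adjusted p (edgeR quasi-likelihood test, Benjamini-Hochberg over all genes tested) was at most 0.05 and its log2 fold change at least 1 in either direction. No member was called in any genotype, and 0 members passed the adjusted p alone. With the replicate number as a block, Pdlim7 (-0.67, adjusted p = 0.00805 by edgeR) and Srf (-0.60, adjusted p = 0.0223) passed it in GRwt/wt, both below the fold threshold. In GRwt/wt 0.159% of all genes tested were called, each of them higher, and 0.203% were higher and 0.0191% lower by the adjusted p alone. An unadjusted p under 0.05 was found for 5 of the 33 members and for 2454 of the 15748 genes tested, which is a like share. In each mutant 0 members had an unadjusted p under 0.05, as did 154 (GRD/D), 43 (GRL/L) and 54 (GRD+L/D+L) of the 15748 genes, and 0 of all genes were called. A lack of calls does not show a lack of response. Fkbp5, a GR target measured in the paper, stood at 32.6 and 31.1 CPM in GRD/D vehicle. With Dex it stood at 118, 94.8 and 93.9 CPM there, and it was not called. GRL/L held 25.3 to 29.2 CPM of it in vehicle and 29.0 to 30.5 CPM with Dex. For GRD+L/D+L the ranges were 20.3 to 34.4 and 21.7 to 35.9 CPM.

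In the remaining Dex libraries of the genes followed throughout, Tagln stood at 210.4, 723 and 863 CPM in GRD+L/D+L. Cnn1 stood at 105, 9.79 and 111 CPM in GRwt/wt, 23.4, 25.6 and 24.8 CPM in GRL/L, and 13.5, 83.4 and 114 CPM in GRD+L/D+L. Myh11 stood at 36.2, 4.50 and 35.5 CPM, 9.47, 6.58 and 8.77 CPM, and 7.83, 35.6 and 56.4 CPM in the same order. GRwt/wt Dex replicate 2 and GRD+L/D+L Dex replicate 1 were the lowest of their groups in both genes, and GRD+L/D+L Dex replicate 1 was so in Tagln.

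In GRwt/wt 22 of the 33 members had a lower mean with Dex, at a median of -0.23 (all genes -0.01), and the thin filament members had a median of -0.63 with 9 of 11 lower. Acta2 changed by -0.72 ± 0.72 (SE, 95% interval -2.25 to 0.80, adjusted p = 0.656), Tagln by -0.75 ± 0.63 (adjusted p = 0.599) and Cnn1 by -0.68 ± 0.80 (adjusted p = 0.71). These values depended on single libraries. Without the low Dex replicate 2 the median of the members was 0.01, and Acta2, Tagln and Cnn1 stood at -0.21, -0.26 and -0.16. Without vehicle replicate 1 the median was -0.04 and the 3 genes stood at -0.38, -0.22 and -0.17. Blocked by replicate number, although equal numbers are not shown to pair in GRwt/wt, Acta2 stood at -1.14 (95% interval -2.36 to 0.07).

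Srf (ENSMUSG00000015605, chr17:46548329-46556175, minus strand) encodes the transcription factor that gives the pathway its name. In GRwt/wt it stood at 47.6, 28.9 and 36.4 CPM in vehicle and 29.7, 20.5 and 23.5 CPM with Dex, so that vehicle replicate 2 lay just under Dex replicate 1. Its change of -0.62 ± 0.18 had an adjusted p of 0.148. Without vehicle replicate 2 the adjusted p was 0.0289. The other genotypes held 25.9 and 27.2 CPM (GRD/D), 21.4, 26.0 and 27.3 CPM (GRL/L), and 30.0, 38.0 and 34.5 CPM (GRD+L/D+L) in vehicle. With Dex they held 25.2, 30.8 and 24.7 CPM, 22.5, 20.97 and 26.9 CPM, and 30.2, 33.2 and 31.9 CPM.

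In the mutants the median change of the members with Dex was 0.02 (GRD/D), -0.01 (GRL/L) and 0.03 (GRD+L/D+L), and that of all genes was 0 in each. Acta2 changed by 0.10 (95% interval -1.59 to 1.8) in GRD/D, by -0.05 (-1.57 to 1.46) in GRL/L and by 0.08 (-1.43 to 1.60) in GRD+L/D+L. The fit shares 1 estimate of error with the groups that contain the low libraries. The interval lay within 1 log2 of no change for 19, 22 and 21 of the 33 members in the 3 mutants, and for 12 in GRwt/wt. In GRD/D, which had 2 vehicle libraries, 6 members were higher and 4 lower without overlap of the groups, where 10.8% and 10.5% of all genes were. GRD+L/D+L and GRL/L had 0 such members in either direction, against 1.49% to 2.43% of all genes. In these genotypes same-numbered libraries deviated together, which the overlap of groups and the intervals above do not use. With the replicate number as a block, Acta2 changed by -0.04 (-1.12 to 1.04) in GRL/L and by 0.08 (-1.0 to 1.15) in GRD+L/D+L, and the interval lay within 1 log2 of no change for 25 members in each and within 0.5 for 15 and 13. Within GRD+L/D+L pairs Acta2 differed by 0.06, 0.08 and 0.09 (log2), higher with Dex in 3 of 3, and in GRL/L by -0.03, -0.10 and 0.00.

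The difference between a mutant's Dex response and that of GRwt/wt was called for 0 of the 33 members in each mutant, where 0% (GRD/D), 0.0254% (GRL/L) and 0.0254% (GRD+L/D+L) of all genes were called, all of them lower. For Acta2 it was 0.83 ± 1.09, 0.67 ± 1.02 and 0.81 ± 1.02 (log2, SE) in the same order. With single libraries left out it ran from 0.32 to 1.28, 0.16 to 1.13 and 0.30 to 1.30. The lowest values in GRD/D and GRL/L came without GRwt/wt Dex replicate 2. The smallest adjusted p over the members was 0.691, 0.79 and 0.906. In each mutant 1 of the 33 members had an unadjusted p under 0.05, as did 1119, 990 and 796 of the 15748 genes tested.

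Myocd (ENSMUSG00000020542, chr11:65176561-65269989, minus strand) was the member with the largest difference with Dex and also the rarest. In GRwt/wt it had 3, 5 and 0 counts in vehicle and 33, 19 and 67 with Dex, and the groups did not overlap. It was the only member without overlap in that comparison, where 4.98% of all genes were higher in this way. Pooled over the libraries the ratio was 15.3 (95% interval 7.52 to 36.3, counting error only), and the fitted log2 change was 3.93 ± 1.00 (adjusted p = 0.133). Without GRwt/wt vehicle replicate 2 the adjusted p was 0.0466. DESeq2 called it, whereas edgeR did not with every library kept. With the replicate number as a block it did not pass the adjusted p.

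In the mutants Myocd had fewer counts with Dex than in GRwt/wt. GRD/D had 0 and 6 counts in vehicle and 12, 13 and 3 with Dex, GRL/L had 2, 2 and 2 against 6, 14 and 1, and GRD+L/D+L had 7, 9 and 2 against 2, 3 and 1. With Dex, GRD+L/D+L lay below GRwt/wt by 18.8-fold (log2 -4.23 ± 1.04, adjusted p = 0.0292), and the ratio of the pooled counts was 18.5 (8.24 to 51.3). This was the 1 member called among the comparisons with Dex, where 1.87% of all genes were called lower and 0.876% higher in GRD+L/D+L. By the adjusted p alone it was also the 1 member that passed, against 2.97% of all genes lower and 1.92% higher. The call was lost without GRwt/wt Dex replicate 3 (adjusted p up to 0.12 over the libraries left out) and without any of the 3 GRD+L/D+L Dex libraries. It was also lost in the fit with only the genotypes compared. A minimum of 10 counts in every library removed Myocd from testing. GRL/L lay at -2.59 (adjusted p = 0.102) and GRD/D at -2.15 (adjusted p = 0.347). The difference in Dex response itself was -5.30 ± 1.47 for GRD+L/D+L (unadjusted p = 0.00208, adjusted p = 0.906).

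The second comparison set each mutant against GRwt/wt in vehicle, so that the 3 contrasts share the GRwt/wt libraries. In GRL/L most contractile genes had a lower level. Of the members 28 of 33 had a lower mean, at a median of -0.80, against -0.05 for all genes. Called lower were 6 of them, 5 from the thin filament and the essential light chain Myl6, where 2.84% of all genes were called lower. No member was called higher, where 4.93% of all genes were. By the adjusted p alone 11 members were lower, where 14.2% of all genes were, and 0 were higher, where 8.83% were. Lower without overlap of the groups were 17 members, where 18.4% of all genes were.

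Actg2 (ENSMUSG00000059430, chr6:83512905-83536265, minus strand) was lower 6.77-fold (log2 -2.76 ± 0.87, adjusted p = 0.0305). It stood at 29.6, 27.6 and 19.1 CPM in GRL/L against 324, 123 and 69.2 CPM in GRwt/wt, and the groups did not overlap. Without GRwt/wt vehicle replicate 1 the difference was -1.92. Tagln (ENSMUSG00000032085, chr9:45929619-45936058, minus strand), a calponin relative that binds actin filaments, was lower 4.36-fold (log2 -2.12 ± 0.65, adjusted p = 0.0259). Its values were 364, 478 and 356 CPM against 2819, 1550 and 853 CPM, again without overlap. Of its 1988 exon bases 1349 overlap exons on the other strand, mainly of Pcsk7, and the strand setting of the counting was not given, so its level is uncertain to that extent.

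Cnn2 (ENSMUSG00000004665, chr10:79988584-79996062, plus strand), the calponin of non-muscle cells, was lower 2.97-fold (log2 -1.57 ± 0.36, adjusted p = 0.00486). It stood at 252, 294 and 295 CPM in GRL/L against 1230, 641 and 621 CPM. Tpm2 (ENSMUSG00000028464, chr4:43514711-43523765, minus strand) was lower 2.95-fold (log2 -1.56 ± 0.42, adjusted p = 0.0129), with 201, 216 and 190 CPM against 868, 602 and 322 CPM. Myl6 (log2 -1.20 ± 0.26, adjusted p = 0.0042) and Tpm1, alpha-tropomyosin (log2 -1.02 ± 0.35, adjusted p = 0.0454), completed the called members. Outside this comparison Actg2 stood at 198, 9.09 and 99.1 CPM in GRwt/wt Dex, and 28.5, 27.7 and 22.6 CPM in GRL/L Dex. In GRD/D it stood at 91.5 and 78.6 CPM in vehicle and 101, 65.3 and 89.2 CPM with Dex. The GRD+L/D+L libraries held 17.2, 116 and 53.3 CPM in vehicle and 16.3, 125 and 65.9 CPM with Dex, with replicate 1 lowest in each. Cnn2 stood at 795, 176 and 532 CPM in GRwt/wt Dex and between 418 and 669 CPM in the GRD/D and GRD+L/D+L libraries, above the 262, 286 and 284 CPM of GRL/L Dex. Tpm2 stood at 542, 149 and 467 CPM in GRwt/wt Dex, 355 to 449.5 CPM in GRD/D and 186.5 to 211 CPM in GRL/L Dex, and GRD+L/D+L held 166, 321 and 368 CPM in vehicle and 169, 345 and 391 CPM with Dex. Over the 23 fits that each left out 1 library, Cnn2, Myl6 and Tgfb1i1 passed the adjusted p in 23 and Tpm2 in 22. Actg2 and Tagln passed in 19, not without GRwt/wt vehicle replicate 1 or any 1 of the GRL/L vehicle libraries. Tpm1 passed in 7 (adjusted p up to 0.159). Without GRwt/wt Dex replicate 1 or either replicate 1 of GRD+L/D+L, Tpm1 passed but fell below the fold threshold. So did Myl6 without GRwt/wt vehicle replicate 1 (-0.90).

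Below the fold threshold, 5 more members passed the adjusted p. They were the cross-linkers Actn1 (-0.88) and Actn4 (-0.71), the focal adhesion LIM proteins Tgfb1i1 (-0.99) and Pdlim7 (-0.97), and Srf (-0.60). Of these, only Tgfb1i1 still passed when GRwt/wt vehicle replicate 1 was left out. Over the 23 fits that left out 1 library, Actn4 passed in 22 and Srf in 21, the latter not without GRL/L vehicle replicate 1 either. Actn1 and Pdlim7 passed in 19, and also failed without any 1 of the GRL/L vehicle libraries. Acta2 and Cnn1 did not pass. Acta2 differed by -1.93 ± 0.74 (adjusted p = 0.0686) and Cnn1, at 26.1, 24.3 and 21.9 CPM against 192, 126 and 44.6 CPM, by -2.32 ± 0.84 (adjusted p = 0.0541), both without overlap of the groups. Myl9 (-1.52, adjusted p = 0.0693) and Lmod1 (-1.42, adjusted p = 0.116) also had large differences with wide errors. Myh11 stood at 10.2, 7.32 and 8.69 CPM in GRL/L and 15.3, 33.2 and 6.89 CPM in GRwt/wt, and overlapped. Cald1, Lima1, Synpo2, Itgb1 and Fermt2 had a higher mean in GRL/L, by 0.15 to 0.29, with adjusted p of at least 0.403, and Vcl differed by 0.00 (95% interval -0.61 to 0.60). Without GRwt/wt vehicle replicate 1 the values turned to -0.21 for Cald1, -0.08 for Synpo2, -0.23 for Itgb1 and -0.13 for Fermt2, and to 0.12 for Flna and 0.23 for Des, which lay lower with it, and 30 of 33 members then had a lower mean.

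**Figure D4:**
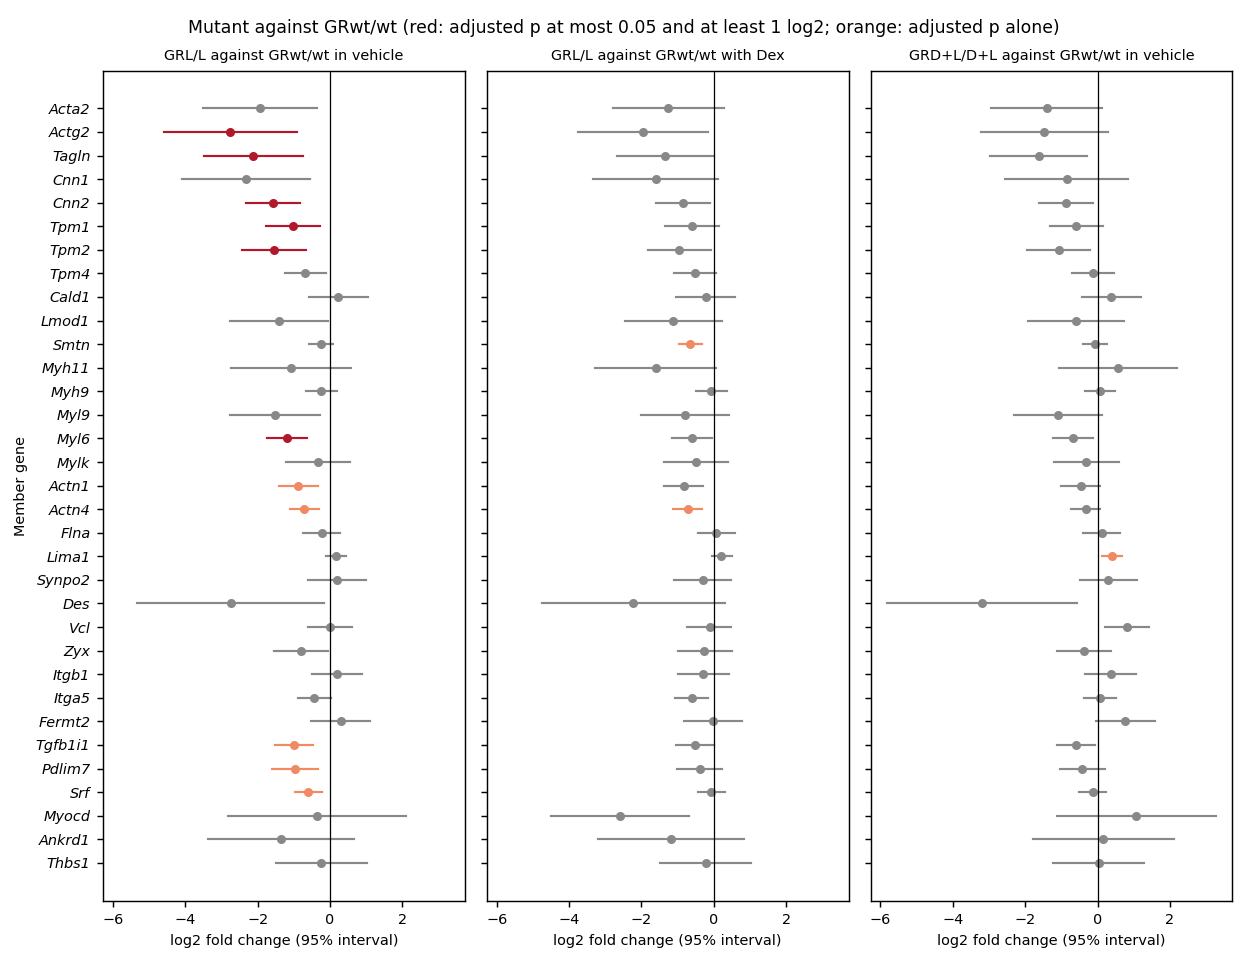
Log2 fold change with its 95% interval for the 33 members in GRL/L against GRwt/wt in vehicle and with Dex and in GRD+L/D+L against GRwt/wt in vehicle, red where the adjusted p and the fold threshold were met and orange where the adjusted p alone was. In the first panel 28 of 33 points lie left of 0 and 6 are red; in the second 31 lie left of 0 and none is red.

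The GRL/L count depended on single GRwt/wt libraries. Without GRwt/wt vehicle replicate 1, the library that stood apart, 1 member remained called (Cnn2) and the median of the members was -0.58, while the share of all genes called in either direction was 5.93%, against 7.78% with every library. With vehicle replicates 1 and 3 both left out, which leaves GRwt/wt vehicle 1 library that is assumed to vary like the other groups, 2 were called (Tpm2 and Myl6), with 8.11% of all genes. Without vehicle replicate 3 there were 10, with 17.1% of all genes, and without GRwt/wt Dex replicate 2 also 10, with 7.81%. Without GRL/L vehicle replicate 1 or 3 there were 3 (Cnn2, Tpm2 and Myl6), with 5.07% and 6.03%. A correction for GC content and length gave 4, with 8.41%. Upper-quartile scaling, which moved the median of all genes to -0.17, gave 12, with 9.53%. The fit with only the genotypes compared gave 3 (Cnn2, Tpm2 and Myl6), with 4.72%, so Actg2, Tagln and Tpm1 were not called in it.

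The marker lists of other cell types gave the following. Summed skeletal muscle markers ran from 6.57 to 7.50 CPM in GRL/L vehicle and from 9.29 to 58.4 CPM in GRwt/wt vehicle, of which Acta1 made up 4.76 to 6.22 and 7.97 to 57.0 CPM, with Myod1 and Myf5 at 0 in both groups. Cardiac markers ran from 0.377 to 0.777 against 1.27 to 8.72 CPM, with Myh6 and Nkx2-5 at 0 in both. Macrophage markers ran from 301 to 681 CPM in GRL/L, and stood at 41.4, 18.5 and 4683 CPM in GRwt/wt. Fibroblast markers ran from 48889 to 53638 against 35083 to 49745 CPM. The smooth muscle and pericyte markers that are not members overlapped, at 141.7 to 202.2 in GRL/L against 146.1 to 278.6 CPM in GRwt/wt. So did the endothelial (6.94 to 13.3 against 5.41 to 9.34 CPM), epithelial (1.24 to 1.78 against 0.861 to 5.79 CPM), and neural and glial lists (72.1 to 125.6 against 70.6 to 191.1 CPM). The part of these in the result was not tested.

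With Dex the same genotypes were compared in the remaining libraries. In GRL/L 31 of 33 members had a lower mean than GRwt/wt at a median of -0.61 (all genes -0.02), and all 11 thin filament members did. None was called, where 1.23% of all genes were called lower and 1.37% higher. Passing the adjusted p alone were Smtn (-0.65 ± 0.15, adjusted p = 0.021) and Actn4 (-0.72 ± 0.19, adjusted p = 0.0341), where 2.90% of all genes did so in that direction and 2.57% in the other. Acta2 differed by -1.26 ± 0.73 (adjusted p = 0.317) and Tagln, at 392, 474 and 363 CPM against 1783, 194 and 1125 CPM, by -1.34 ± 0.64 (adjusted p = 0.221). The low GRwt/wt Dex replicate 2 fell below every GRL/L library for both genes. Without it 3 members were called (Cnn2, Tpm2 and Actn1), with 2.99% of all genes called, and the median was -0.82. Without GRwt/wt Dex replicate 1 the median was -0.29 and Tagln stood at -0.69. Actn4 did not pass without any 1 of the GRL/L Dex libraries or without replicate 1 or 3 of GRwt/wt Dex (adjusted p up to 0.14). Without GRwt/wt vehicle replicate 1 or 3, 1 was (Myocd), with 6.07% and 4.71% of all genes called.

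Smtn, an actin-binding protein of contractile smooth muscle, had a small spread with Dex. In GRwt/wt it held 92.6, 90.4 and 92.6 CPM, the low replicate 2 included. GRL/L held 56.9, 52.4 and 66.8 CPM, GRD/D 45.5, 52.7 and 49.1 CPM, and GRD+L/D+L 79.6, 61.7 and 69.7 CPM, and none of these groups overlapped GRwt/wt, as was so for 20.4%, 12.4% and 14.7% of all genes lower in GRL/L, GRD/D and GRD+L/D+L. In GRD/D the difference of -0.90 ± 0.15 passed the adjusted p (0.0171), as did 0.279% of all genes in that direction, and in GRD+L/D+L it was -0.38 ± 0.15 (adjusted p = 0.155). In GRwt/wt vehicle Smtn held 92.5, 62.6 and 56.4 CPM. Leaving out 1 library at a time, the GRD/D difference did not pass without GRwt/wt Dex replicate 2 or any GRD/D Dex library, and that of GRL/L did not without replicate 1 or 2 of GRL/L Dex or replicate 1 or 3 of GRwt/wt Dex (adjusted p up to 0.115). Of its 4380 exon bases 714 overlap genes on the other strand.

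GRD+L/D+L in vehicle had 20 of 33 members lower, at a median of -0.31, and none was called, where 4.71% of all genes were called lower and 3.62% higher. Its replicate 1 lay far from the others, and without it the median was -0.06 and Vcl was called higher, with 8.22% of all genes called. Tagln, at 196, 690 and 797 CPM, differed from GRwt/wt by -1.63 ± 0.64 (adjusted p = 0.0792) and Acta2 by -1.41 ± 0.73 (adjusted p = 0.175). Cnn1 stood at 12.2, 86.0 and 103 CPM and Myh11 at 6.53, 32.8 and 41.5 CPM, with replicate 1 lowest in each. Lima1 passed the adjusted p alone, higher by 0.39 ± 0.13 (adjusted p = 0.0427), as did 7.14% of all genes in that direction. It stood at 319, 374 and 379 CPM against 254, 225 and 340 CPM, so the groups overlapped, and it passed in 8 of the 23 fits that left out 1 library (adjusted p up to 0.143). Between 1 and 4 members were called without GRwt/wt vehicle replicate 2 (Des, with 10.1% of all genes called), without GRwt/wt Dex replicate 2 (Tagln and Tpm2, 8.21%) or without GRwt/wt vehicle replicate 3 (Tagln, Tpm2, Des and Fermt2, 12.8%), where every library gave 8.32%.

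GRD/D had fewer calls over all genes than the other mutants. In vehicle 21 members were lower, at a median of -0.39 (all genes -0.06) that was -0.05 without GRwt/wt vehicle replicate 1, and 0 were called, where 0.00635% of all genes were called lower. Acta2 differed by -0.74 ± 0.82 (adjusted p = 0.653), or by -0.38 without that library. Tagln stood at 1116 and 1071 CPM in vehicle and 1130, 922 and 1198 CPM with Dex. Cnn1 held 93.0 and 89.7 CPM, then 93.2, 39.6 and 95.3 CPM, and Myh11 15.7 and 21.8 CPM, then 20.1, 6.50 and 23.5 CPM, so that Dex replicate 2 was low in both. With Dex 0 members were called, where 0.241% of all genes were called lower and 0.0127% higher. There the median was 0.09, or -0.35 without GRwt/wt Dex replicate 2 and 0.32 without GRwt/wt Dex replicate 1. Acta2 differed by 0.09 ± 0.72, or by -0.42 without GRwt/wt Dex replicate 2. Des had the largest fitted difference in vehicle, at -4.17 (adjusted p = 0.344), and it was -1.18 without the GRwt/wt library in which it stood at 210 CPM.

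The pathway around the members was followed in 79 further genes, all of them tested, comprising 25 of SRF and its MRTF cofactors, 13 of YAP and TEAD, 19 of TGF-beta and fibroblast activation, and 22 integrins and adhesion complex genes. With Dex, 0 of the 79 passed in any genotype. In GRL/L vehicle 6 were higher and 13 lower than in GRwt/wt by the adjusted p, at a median of -0.09, which is near the 8.83% and 14.2% of all genes. Called were 3 higher and 6 lower, where 4.93% and 2.84% of all genes were. Among the called genes, cytoplasmic actin was also lower in GRL/L. Actb stood at a mean of 1415 CPM in GRL/L and 3527 CPM in GRwt/wt, over 3 libraries each (log2 -1.32 ± 0.22, adjusted p = 7.89e-04). The LIM protein gene Csrp1 (-1.72) and the YAP target Ccn2 (-1.53) were also among those called lower. Higher were Itga8, an integrin subunit (2.25), the immediate early gene Egr3 (1.53) and the SRF cofactor Mrtfb (1.11). Unlike the members, the 79 genes were not followed with single libraries left out, such as GRwt/wt vehicle replicate 1.

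With Dex, GRL/L had 1 of the 79 higher and 6 lower by the adjusted p, where 2.57% and 2.90% of all genes were, and among those called lower were Ccn2 (-2.14) and the TEAD factor Tead4 (-2.13). In GRD+L/D+L vehicle 7 were higher and 6 lower, where 7.14% and 13.3% of all genes were, with Itga2 (2.35), Egr3 (1.88) and Itga8 (1.25) leading among those called higher and Csrp1 (-1.24), Actb (-1.04) and Myl12a (-1.02) called lower. With Dex GRD+L/D+L had 1 higher and 2 lower, where 1.92% and 2.97% of all genes were, and Egr3 was called higher (1.84) and Ccn2 lower (-1.62). GRD/D had 0 of the 79 past the adjusted p in vehicle and with Dex.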

How the data were processed

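The authors sequenced 23 TruSeq libraries of total RNA, from 3 MEF cultures a genotype, each treated with vehicle or Dex. Per the labels and methods, reads were aligned to mm10 with HISAT2 2.1.0 and uniquely aligned reads were assigned to genes with featureCounts 2.0.0. The deposited values are raw counts per gene. The strand setting and annotation release were not given in the sources used here, and gene models of GENCODE M21 were used for coordinates, exon lengths and GC content.

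Counts were tested with edgeR 4.0.16 (R 4.3.3, limma 3.58.1) in 1 quasi-likelihood fit of 8 group means with TMM scaling, filterByExpr and a prior count of 0.125, checked on simulated counts. Log values used a pseudocount of 0.5 CPM. Replicates are labelled as separate samples. Same-numbered Dex and vehicle libraries deviated together in GRL/L (r 0.43, 0.74 and 0.73) and GRD+L/D+L (0.93, 0.85 and 0.77). Not all GRwt/wt pairs did (0.57, 0.07 and 0.03). GRD/D had 2 pairs (0.34 and -0.23). These are not separate checks of pairing, because 2 vehicle libraries deviate from their mean as mirror images. Values in every library were given for Acta2, Tagln, Cnn1, Myh11, Srf and Myocd, and in the groups compared for up to 4 called members per comparison and direction; other genes given singly, such as Smtn and Des, were picked after their values were seen. The members, lists and tests were chosen with earlier results of these data known. Scaling, filters, samples, a GC and length correction and DESeq2 1.42.0 served as alternatives. One gene of the pathway lists is not reported here by name.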

Additional observations from a re-analysis of the deposited data

How the results depend on the processing

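In GRL/L against GRwt/wt in vehicle, 6 members were called (7.78% of all genes). Leaving out single libraries gave 1 to 10 (5.04% to 17.1% of all genes). The fit with only the genotypes compared gave 3 (4.72%), DESeq2 9 (9.79%) and the adjusted p alone 11 (23%). Upper-quartile scaling gave 12 (9.53%) and moved the median of all genes from -0.05 to -0.17. With Dex, GRL/L had 0 (2.59% of all genes), and single libraries left out gave 0 to 3 (0.942% to 6.07%). DESeq2 gave 1 (4.89%) and the adjusted p alone 2 (5.47%). In GRD+L/D+L in vehicle, 0 were called (8.32% of all genes), and single libraries left out gave 0 to 4 (3.73% to 12.8%). DESeq2 gave 2 (10.7%), the adjusted p alone 1 (20.4%) and upper-quartile scaling 3 (10%). With Dex, GRD+L/D+L had 1, single libraries left out gave 0 to 1, and a minimum of 10 counts in every library or the fit of only the genotypes compared gave 0. In GRD/D with Dex the adjusted p alone gave 1. Dex in GRwt/wt gave 1 with DESeq2 (Myocd) and 0 to 1 with single libraries left out. The cause of these shifts was not tested. The replicate block left the Dex counts at 0 and gave 5 in GRL/L vehicle (8.23% of all genes). In GRwt/wt, whose numbers are not shown to pair, Pdlim7 (0.00805) and Srf (0.0223) passed the adjusted p under it, below the fold threshold.

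With GRwt/wt vehicle replicates 1 and 3 both left out, where the arm is the 1 library of replicate 2 (highest of that group in Myh11), Myh11 with Dex in GRwt/wt turned from 0.46 to -0.40 and Des in GRL/L vehicle from -2.75 to 0.18. Leaving out single libraries turned Des in GRL/L vehicle (-3.38 to 0.23), Acta2 with Dex in GRD/D (-0.02 to 0.23), GRL/L (-0.24 to 0.17) and GRD+L/D+L (-0.42 to 0.58), Acta2 in GRD/D against GRwt/wt with Dex (-0.42 to 0.58), and the Myocd difference in Dex response of GRD/D (-3.31 to 2.29). The median of the members with Dex in GRwt/wt ran from -0.55 to 0.01 with single libraries left out. Depth limits Myocd, with at most 67 counts in a library.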

Other observations

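Pdgfra, the platelet-derived growth factor receptor of fibroblasts and not a member, was looked at after its values were seen. In GRD+L/D+L it stood at 810 CPM in vehicle replicate 1 and 767 CPM in Dex replicate 1, the libraries with Acta2 at 272 and 283 CPM, and between 191 and 227 CPM in replicates 2 and 3. In GRwt/wt Dex it stood at 921 CPM in replicate 2, where Acta2 was 303 CPM, and at 525 and 498 CPM in replicates 1 and 3. The GRL/L libraries held 606 to 715 CPM of Pdgfra and 691 to 1115 CPM of Acta2, and the GRD/D libraries 279 to 464.7 CPM of Pdgfra and 1826 to 2266 CPM of Acta2. In GRwt/wt vehicle Pdgfra stood at 152, 312 and 306 CPM. Other fibroblast markers did not follow it throughout. Lum, a matrix proteoglycan, stood at 102 CPM in GRD+L/D+L vehicle replicate 1 against 163 and 105 CPM in replicates 2 and 3. In GRwt/wt Dex it stood at 1435 CPM in replicate 2 against 58.1 and 427 CPM. The 12 fibroblast markers summed to 33856 and 37531 CPM in replicate 1 of GRD+L/D+L vehicle and Dex, below the 49012 to 61658 CPM of replicates 2 and 3.

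Acta1, the skeletal muscle actin that led its marker list, was low in the same libraries, at 2.48 CPM in GRwt/wt Dex replicate 2 and 5.70 and 5.71 CPM in replicate 1 of GRD+L/D+L vehicle and Dex, and at 4.76 to 6.28 CPM across GRL/L. In GRwt/wt vehicle replicate 3 it was also low, at 7.97 CPM, where Acta2 stood at 2155 CPM. No test was made of either gene against the members.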
